A study of Mus musculus with 11 samples.

Results

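The genes described here encode the subunits of the AMPA and NMDA receptors, the ion channels that carry fast and slow excitatory transmission by glutamate. The rule named 10 genes, Gria1 to Gria4 for the AMPA receptor and Grin1, Grin2a, Grin2b, Grin2c, Grin2d and Grin3a for the NMDA receptor, and took for each the array feature annotated to that symbol alone. Such a feature was found for 9 of the 10, with 1 probe set each, out of 19938 genes with a single symbol on the array. Grin1, the obligatory subunit of the NMDA receptor, was not analysed here. All 9 passed the filter on low values that left 16527 genes for testing, which asked for a value over the array's 25th percentile on at least 2 arrays.

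AMPA receptors are tetramers that open within milliseconds. Gria2 (GluA2) decides their calcium permeability, because its RNA is edited at the pore so that channels holding it pass little calcium. NMDA receptors pair Grin1 with Grin2 subunits and need a co-agonist, glycine or D-serine, beside glutamate. In forebrain development Grin2b is expressed early and Grin2a is added as synapses mature. Newborn granule neurons of the dentate gyrus, the hippocampal region that goes on making neurons after birth, receive NMDA receptor signals that bear on their survival.

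RNA came from green fluorescent cells sorted from microdissected dorsal and ventral dentate gyrus of adult mice at postnatal day 35, about 3000 to 5000 cells per group, and was amplified before hybridisation to 11 Affymetrix Mouse Gene 1.0 ST arrays. All animals carried a GFP reporter. NesGFP (3 arrays) is a Nestin reporter transgene, Nestin being an intermediate filament of neural stem cells. kiTbr2GFP (3 arrays) has GFP knocked into Eomes, which encodes Tbr2, a T-box factor made by intermediate progenitors of neurons, and tgTbr2GFP (3 arrays) carries GFP on an Eomes BAC transgene. PomcGFP (2 arrays) is a proopiomelanocortin reporter transgene that labels newborn granule neurons. A reporter can mark cells after its gene has been switched off and can mark other cell types, so a line is a sorted population and not a pure stage. Whether a line's arrays are from separate animals is not given, so p-values measure only how far arrays scatter, and that scatter may be technical. In tgTbr2GFP the Y-linked gene Eif2s3y had log2 values of 9.76, 3.75 and 8.24 on arrays 1, 2 and 3. Uty, also Y-linked, was at 8.10, 4.43 and 6.17. The tgTbr2GFP arrays thus differ in their share of RNA from male animals. Other lines differed as well. The mean log2 level of the Y-linked genes was 6.68 to 7.69 on NesGFP arrays and 8.70 to 8.96 on kiTbr2GFP arrays. It was 8.15 and 7.995 on PomcGFP arrays 1 and 2. Comparisons with NesGFP therefore also compare arrays that differ in this level. Its part in them was not tested beyond a fit with the level as a covariate.

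Values are log2 RMA values, RMA being the authors' background correction, normalisation and summary of the probes of a gene. They are compared here for the same gene across lines, not between genes. The 25th percentile of an array, taken as the mark of a low value, lay between 5.90 and 6.20. Arrays of a line correlated across genes at r of 0.939 to 0.985, and NesGFP arrays with those of other lines at 0.766 to 0.839. The genes that drive the reporters were each highest in a line named for them: Nes had a mean of 7.35 in NesGFP and 5.94 to 6.15 elsewhere, Eomes 9.98 in kiTbr2GFP and 10.18 in tgTbr2GFP against 8.80 in NesGFP and 7.52 in PomcGFP, and Pomc 7.25 in PomcGFP against 6.77 to 6.95, a small gap. The Pomc gap did not pass in any comparison of PomcGFP with the other lines (limma adjusted p = 0.132 to 0.291). NesGFP also held high levels of markers of further cell types. Of 8 endothelial markers 8 were lower in the Tbr2 lines than in NesGFP, as were 10 of 10 astrocyte, 8 of 8 oligodendrocyte precursor and 7 of 7 measured oligodendrocyte markers. The mean log2 level of the endothelial list was 9.94 to 10.10 on NesGFP arrays, against 6.12 to 6.39 for kiTbr2GFP, 6.20 to 7.22 for tgTbr2GFP and 6.81 to 7.18 for PomcGFP, and for the oligodendrocyte list it was 10.71 to 10.90, 7.36 to 7.95, 7.34 to 9.10 and 8.86 to 8.92. Of 8 Cajal-Retzius cell markers 6 were higher and 0 lower in the Tbr2 lines than in NesGFP. Over all genes 19.8% were higher and 29.1% lower. PomcGFP had 3 of the 8 lower and 0 higher than the Tbr2 lines, beside 1.73% of all genes lower and 2.0% higher. The mean log2 level of the Cajal-Retzius list was 7.99 to 8.04 for kiTbr2GFP and 8.08 to 8.72 for tgTbr2GFP. It was 7.01 to 7.37 for NesGFP and 6.97 to 7.20 for PomcGFP. Of 9 immature granule neuron genes 5 were higher and 0 lower in the Tbr2 lines than in NesGFP. Between PomcGFP and the Tbr2 lines 0 of the 9 passed. The mean log2 level of that list was 9.45 to 9.605 for NesGFP and 10.43 to 10.56 for kiTbr2GFP. It was 10.25 to 10.395 for tgTbr2GFP and 10.23 to 10.26 for PomcGFP. Of 9 neural stem cell genes 8 were lower in the Tbr2 lines than in NesGFP, as were 8 of 8 mural markers. The part of all these lists in the results on receptor genes was not tested. Fewer cells of a type and less RNA per cell cannot be told apart in such sorted bulk samples.

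RefSeq promoter windows of build GRCm38.p6, from 250 bases before to 50 bases after a gene's start, were held for 5 of the 10 genes. Those of Gria2 and Gria4, the AMPA receptor genes that were higher in both Tbr2 lines, are shown beside that of Grin2c, an NMDA receptor gene that was lower in them. The windows are chr3:80802786-80803085 for Gria2, chr9:4796185-4796484 for Gria4 and chr11:115267194-115267493 for Grin2c, all on the minus strand and written 5′ to 3′. Capitals mark GC boxes (GGGCGG on either strand).
Gria2 promoter: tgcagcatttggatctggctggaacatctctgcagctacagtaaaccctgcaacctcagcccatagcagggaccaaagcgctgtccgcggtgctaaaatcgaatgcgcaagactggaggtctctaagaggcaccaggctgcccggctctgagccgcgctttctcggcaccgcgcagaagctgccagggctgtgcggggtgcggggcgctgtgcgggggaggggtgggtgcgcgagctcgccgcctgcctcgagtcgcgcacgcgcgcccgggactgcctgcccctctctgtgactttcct
Gria4 promoter: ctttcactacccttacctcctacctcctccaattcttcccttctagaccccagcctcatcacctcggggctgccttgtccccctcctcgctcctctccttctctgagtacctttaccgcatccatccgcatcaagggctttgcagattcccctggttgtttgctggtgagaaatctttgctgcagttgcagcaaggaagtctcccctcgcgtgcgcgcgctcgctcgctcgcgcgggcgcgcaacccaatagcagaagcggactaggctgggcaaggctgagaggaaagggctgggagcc
Grin2c promoter: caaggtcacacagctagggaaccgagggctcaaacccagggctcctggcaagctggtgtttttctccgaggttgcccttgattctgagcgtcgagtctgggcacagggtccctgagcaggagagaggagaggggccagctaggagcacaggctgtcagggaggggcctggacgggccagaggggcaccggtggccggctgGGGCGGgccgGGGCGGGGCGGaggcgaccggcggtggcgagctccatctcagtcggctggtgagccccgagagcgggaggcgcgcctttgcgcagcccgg
All 3 windows lie above the median in CpG dinucleotides, with 26 in Gria2, 17 in Gria4 and 22 in Grin2c. The median was 7 over all 32851 windows of this length. Their GC content was 65.7%, 59.7% and 70% against a median of 52.7%. The Gria4 window lies between the quartiles of all windows on both measures (3 to 20 CpG, 45.7% to 61.7% GC). Those of Gria2 and Grin2c lie above them. The Grin2c window holds 3 GC boxes, of which the last pair share a base. A GC box is found in 35.7% of all windows. The E-boxes CAGATG and CAGCTG, the T-box element GGTGTGA and the cAMP response element TGACGTCA, searched on both strands, are in none of these 3 windows, and 17.2%, 16.3%, 3.98% and 1.79% of all windows hold them. The windows of Gria2 and Gria4 are thus alike in lacking all 5 motifs. The window of Grin2d, a gene that passed in no comparison of lines, also lacks them. This says only that these letters are not in these windows.

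Across the 4 lines 8 of the 9 genes passed limma's F test at a Benjamini-Hochberg adjusted p under 0.05, where 43.4% of all genes passed. Grin2d was the exception (adjusted p = 0.927). The genes fell into recognisable shapes. Gria2, Gria4 and Grin2b were lowest in NesGFP and high in the other lines. Gria3 and Grin2a were highest in PomcGFP and lowest in kiTbr2GFP. Gria1 stepped up from NesGFP to PomcGFP, and Grin2c and Grin3a were highest in NesGFP.

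**Figure D1:**
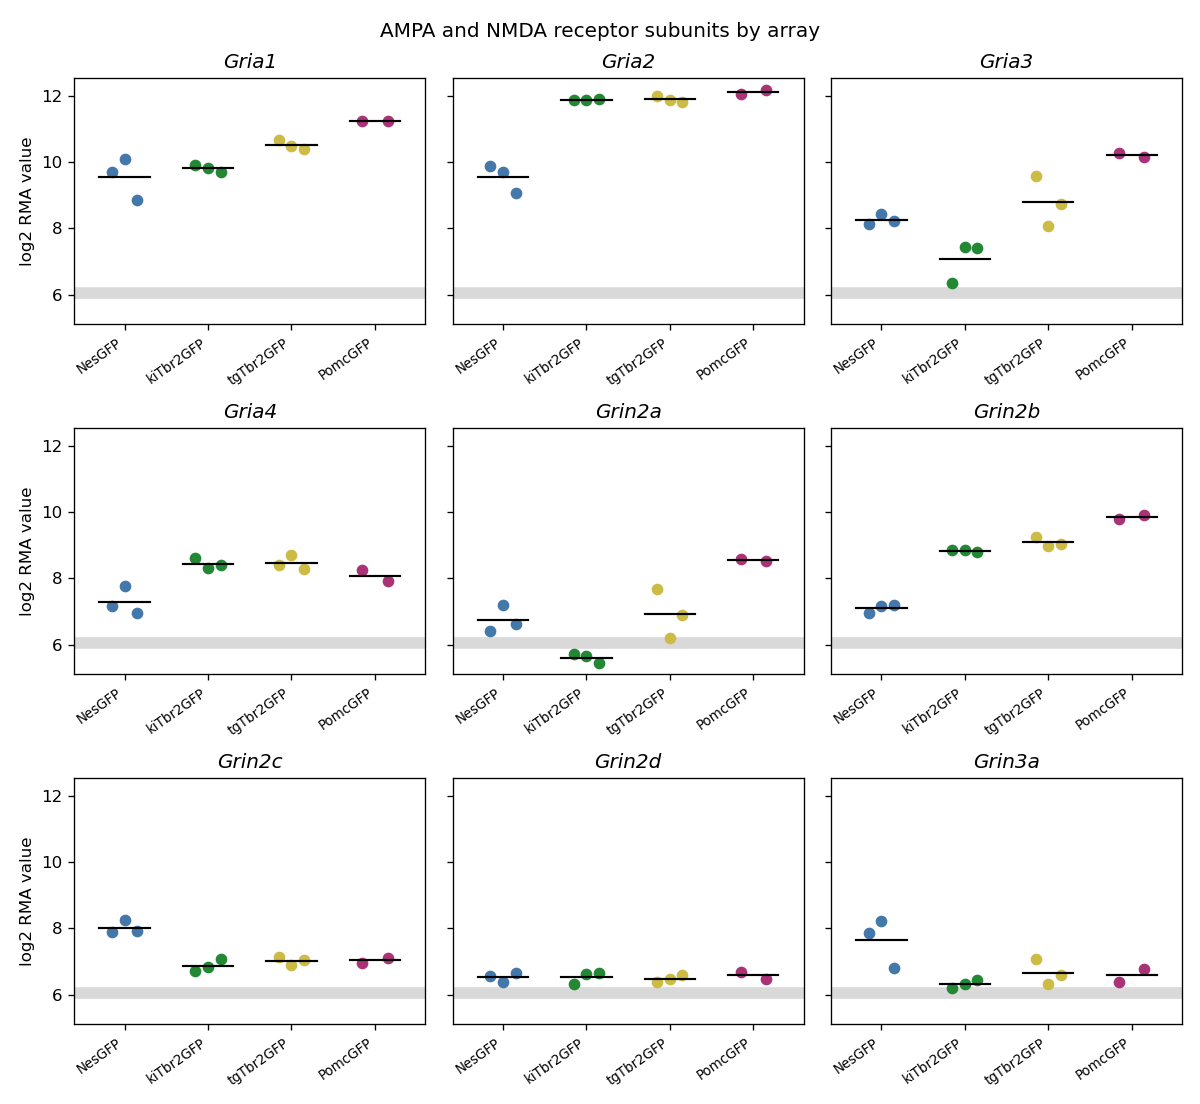
Log2 RMA values of the 9 receptor subunit genes on each of the 11 arrays, with 1 point per array, the line mean as a black bar and the range of the arrays' 25th percentiles (5.90 to 6.20) in grey. Gria2 lies between 11.84 and 12.21 on all arrays of kiTbr2GFP, tgTbr2GFP and PomcGFP and at 9.08 to 9.89 in NesGFP, while Grin2a in kiTbr2GFP lies below the grey band.

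The first comparison asked how cells marked by Tbr2 differ from the Nestin-reporter population. Of the 9 genes 4 were higher and 2 lower in both Tbr2 lines together, where 19.8% of all genes were higher and 29.1% lower (48.9% called in all). The higher ones were Gria2, Grin2b, Gria4 and Gria1, and the lower ones Grin3a and Grin2c. The median difference of the 9 was -0.04, against -0.02 over all genes.

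Gria2 had the largest difference among them. Its log2 values on the NesGFP arrays were 9.89, 9.72 and 9.08. They were 11.90, 11.90 and 11.91 in kiTbr2GFP and 11.997, 11.88 and 11.84 in tgTbr2GFP. No array of either Tbr2 line overlapped with NesGFP, and NesGFP array 3 was the lowest of all. The difference was 2.34 ± 0.15 (SE) on the log2 scale, or 5.06-fold (limma adjusted p = 3.26e-07). It had the same size for either line alone, 2.34 for kiTbr2GFP and 2.34 for tgTbr2GFP, and the difference between the Tbr2 lines was 0.00 with a 95% confidence interval of -0.39 to 0.38.

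Grin2b, the NMDA receptor subunit of young neurons, followed the same order. It stood at 6.95, 7.18 and 7.21 in NesGFP. It stood at 8.86, 8.86 and 8.79 in kiTbr2GFP and at 9.26, 8.98 and 9.06 in tgTbr2GFP. All 6 Tbr2 arrays lay above all 3 NesGFP arrays, by 1.86 ± 0.10 (SE), or 3.62-fold (limma adjusted p = 1.00e-07).

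Gria4, a fast-gating AMPA receptor subunit, was at 7.15, 7.76 and 6.94 in NesGFP. Its values were 8.61, 8.32 and 8.41 in kiTbr2GFP and 8.40, 8.71 and 8.30 in tgTbr2GFP, again without overlap. The difference was 1.17 ± 0.17 (SE), or 2.26-fold (limma adjusted p = 0.000179). Interneurons are known to express Gria4. Of 10 interneuron markers that passed the filter, out of 11 measured, 1 was higher and 3 lower in the Tbr2 lines. Over all genes 19.8% were higher and 29.1% lower. The mean log2 level of the interneuron list ran from 7.09 to 7.32 on NesGFP arrays. It ran from 6.81 to 6.995 on kiTbr2GFP arrays and from 6.93 to 7.34 on tgTbr2GFP arrays. The part of interneurons in the Gria4 difference was not tested.

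Gria1, the main partner of Gria2 in hippocampal principal neurons, differed less. It was at 9.70, 10.10 and 8.88 in NesGFP and at 9.91, 9.83 and 9.72 in kiTbr2GFP, which overlap. In tgTbr2GFP it was at 10.67, 10.49 and 10.40, above every NesGFP array. The mean of the Tbr2 lines was higher by 0.61 ± 0.21 (SE; limma adjusted p = 0.0286), and the difference fell to 0.27 without NesGFP array 3 (adjusted p = 0.0932). The call also ended without kiTbr2GFP array 1 or tgTbr2GFP array 1 (adjusted p = 0.0552 and 0.0562), with median centring (0.54, adjusted p = 0.0589) and with the mean level of Y-linked genes as a covariate (0.52, adjusted p = 0.0892). For tgTbr2GFP alone the difference was 0.96 ± 0.24 (SE; adjusted p = 0.00691) and for kiTbr2GFP alone 0.26 (adjusted p = 0.396, interval -0.26 to 0.79).

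Grin2c, an NMDA receptor subunit that astrocytes and cerebellar granule cells are known to express, went the other way. It was at 7.88, 8.25 and 7.92 in NesGFP. It was at 6.72, 6.83 and 7.06 in kiTbr2GFP and at 7.13, 6.89 and 7.05 in tgTbr2GFP. Every Tbr2 array lay below every NesGFP array, and the difference was -1.07 ± 0.12 (SE; limma adjusted p = 1.76e-05). Astrocyte markers moved with it: the mean log2 level of the 10 measured markers was 10.09 to 10.21 on NesGFP arrays, against 7.80 to 8.10 for kiTbr2GFP, 8.32 to 8.85 for tgTbr2GFP and 8.41 to 8.53 for PomcGFP, and none of them lay below the 25th percentile of any array. Their part in the Grin2c difference was not tested.

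Grin3a, a subunit that lowers the calcium permeability of NMDA receptors, was at 7.87, 8.24 and 6.80 in NesGFP, array 3 standing apart from the others. It was at 6.19, 6.32 and 6.45 in kiTbr2GFP and at 7.06, 6.33 and 6.60 in tgTbr2GFP, so that tgTbr2GFP array 1 lay above the lowest NesGFP array. The kiTbr2GFP values were at percentiles 27.8 to 30.3 of their arrays, close above the 25th percentile. On tgTbr2GFP array 2 (29.7) and PomcGFP array 1 (30.3) Grin3a was close to it too. The sizes of the Grin3a differences from NesGFP are therefore imprecise. The mean of the Tbr2 lines was lower by 1.15 on the log2 scale (-1.15 ± 0.27, SE; limma adjusted p = 0.00421). This call held without any single array (adjusted p = 5.32e-05 to 0.0242). For tgTbr2GFP alone it ended without any of 4 arrays, NesGFP array 1 or 2 or tgTbr2GFP array 2 or 3 (adjusted p = 0.0707 to 0.1), and with only the compared groups (adjusted p = 0.0764).

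Gria3 and Grin2a did not pass in the mean of the Tbr2 lines, and the lines themselves lay apart. Gria3, an X-linked AMPA receptor gene, was at 8.13, 8.44 and 8.22 in NesGFP. In kiTbr2GFP it was at 6.36, 7.43 and 7.41, below every NesGFP array, and in tgTbr2GFP at 9.58, 8.08 and 8.75, on both sides of them. kiTbr2GFP was lower than NesGFP by 1.19 on the log2 scale (-1.19 ± 0.35, SE; limma adjusted p = 0.0162), a call that ended without kiTbr2GFP array 1 (-0.84, adjusted p = 0.0690) and with array weights (-0.94, adjusted p = 0.0723). tgTbr2GFP differed from NesGFP by 0.54 (adjusted p = 0.247, interval -0.23 to 1.31).

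Grin2a, the NMDA receptor subunit of maturing synapses, was at 6.40, 7.19 and 6.62 in NesGFP. In kiTbr2GFP it was at 5.72, 5.65 and 5.44, and all 3 values were below the 25th percentile of their arrays, so the level there is low and its size imprecise. In tgTbr2GFP it was at 7.67, 6.20 and 6.88. kiTbr2GFP was lower than NesGFP by 1.13 on the log2 scale (-1.13 ± 0.31, SE; limma adjusted p = 0.0107), and tgTbr2GFP differed by 0.18 (adjusted p = 0.677, interval -0.49 to 0.85). Without tgTbr2GFP array 1 Grin2a was called lower for both Tbr2 lines together (-0.66, adjusted p = 0.0188), against -0.47 (adjusted p = 0.162) with all arrays. With the mean level of Y-linked genes as a covariate it was at -0.84 (adjusted p = 0.000455).

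Grin2d, an NMDA receptor subunit of interneurons and brainstem, lay between 6.32 and 6.69 on all 11 arrays, with line means within 0.11 of each other. Its difference between the Tbr2 lines and NesGFP was -0.04 with a 95% interval of -0.28 to 0.21. These values lie close above the 25th percentile, where an array measures differences poorly.

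**Figure D2:**
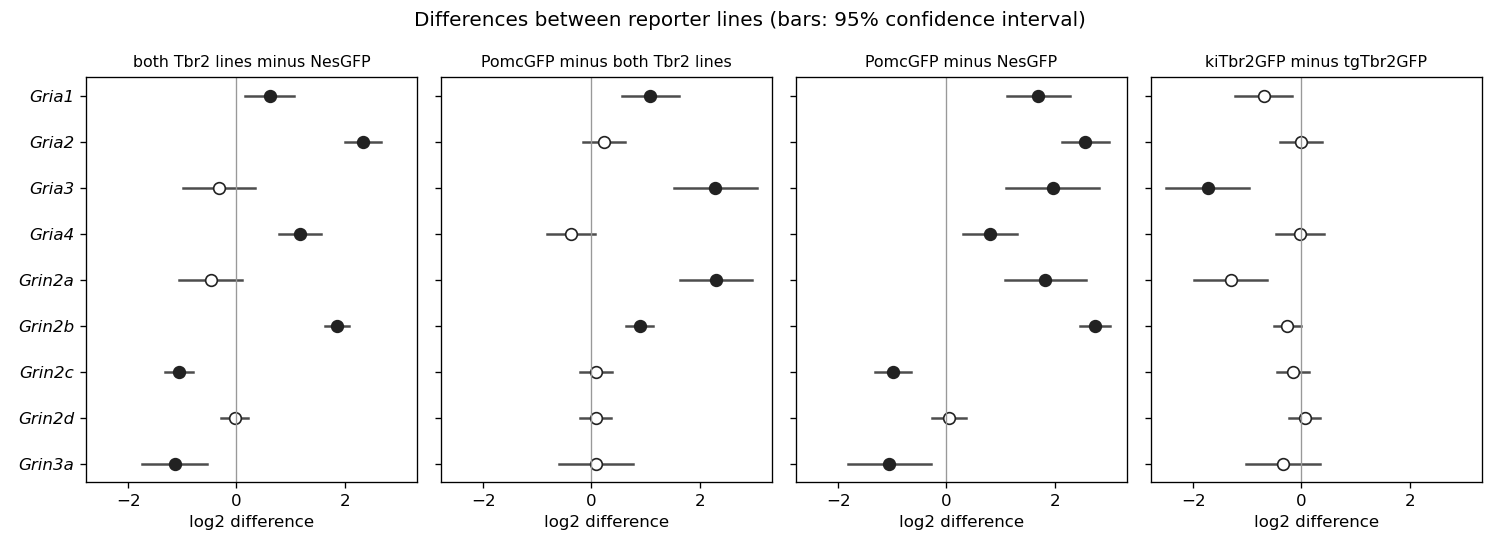
Log2 differences of the 9 genes in 4 comparisons, with 95% confidence intervals from the limma fit as bars; filled points passed at an adjusted p under 0.05. Gria2, Gria4 and Grin2b lie right of 0 against NesGFP in the panels set against that line, and Gria3 and Grin2a lie near 2.3 in the second.

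The next comparison set the newborn-neuron reporter PomcGFP against the Tbr2 reporters. Of the 9 genes 4 were higher in PomcGFP and 0 lower, where 2.0% of all genes were higher and 1.73% lower (3.73% called in all; at an unadjusted p under 0.05 no further gene of the 9 passed in either direction). The 4 were Grin2a, Gria3, Gria1 and Grin2b. The median difference of the 9 was 0.23, against 0.02 over all genes.

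Grin2a stood at 8.58 and 8.54 on the PomcGFP arrays, above the highest of the other 9 arrays (7.67). It was higher than in the Tbr2 lines by 2.30 ± 0.31 (SE), or 4.93-fold (limma adjusted p = 0.0017). Against kiTbr2GFP, where it was near the low end of the arrays, the difference was 2.96, and against tgTbr2GFP 1.65 ± 0.34 (SE; adjusted p = 0.0416). The last call ended without any of 7 arrays (adjusted p = 0.0706 to 0.275), namely each kiTbr2GFP array, tgTbr2GFP arrays 2 and 3 and either PomcGFP array. It also ended with cyclic loess, median centring, the replicate block and only the compared groups (adjusted p = 0.0659 to 0.131).

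Gria3 was at 10.29 and 10.16 in PomcGFP, also above all other arrays. It was higher than in the Tbr2 lines by 2.29 ± 0.35 (SE), or 4.89-fold (limma adjusted p = 0.0037). Without PomcGFP array 1 the adjusted p was 0.0685, with a difference of 2.22. Against tgTbr2GFP alone Gria3 was at 1.42 and did not pass (adjusted p = 0.140, interval 0.56 to 2.28).

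Gria1 was at 11.26 on both PomcGFP arrays, above every other array, and higher than in the Tbr2 lines by 1.09 ± 0.24 (SE; limma adjusted p = 0.0273). This call ended without either PomcGFP array (adjusted p = 0.214 and 0.209), without any of the 3 kiTbr2GFP arrays or without tgTbr2GFP array 2 or 3 (adjusted p = 0.0537 to 0.0627), while the difference stayed between 1.06 and 1.13. With the replicate number as a block it did not pass (0.94, adjusted p = 0.0532). Grin2b was at 9.80 and 9.92 in PomcGFP and higher by 0.89 ± 0.11 (SE; adjusted p = 0.00135). It also passed against tgTbr2GFP alone (0.76 ± 0.13, SE; adjusted p = 0.0144), except without tgTbr2GFP array 2 or 3 or either PomcGFP array (adjusted p = 0.0673 to 0.158) and with only the compared groups in the fit (adjusted p = 0.0527).

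Gria2 and Gria4 did not pass in this comparison. Gria2 was at 12.07 and 12.21 in PomcGFP, and its difference from the Tbr2 lines was 0.23 (adjusted p = 0.739) with an interval of -0.15 to 0.62. Gria4 was at 8.26 and 7.91, below all 6 Tbr2 arrays (8.30 to 8.71), with a difference of -0.37 (adjusted p = 0.522, interval -0.81 to 0.07). Grin2c was at 6.96 and 7.10 and Grin3a at 6.38 and 6.79, both within the range of the Tbr2 arrays. Dividing-cell genes were lower and mature granule neuron genes higher in the same arrays: 5 of 7 and 6 of 12 passed, in those directions. Intermediate progenitor genes were lower (5 of 7), and 3 of 7 microglia and 2 of 7 oligodendrocyte markers were higher, the latter with a median of 1.11 over the list. The shares over all genes were 2.0% higher and 1.73% lower. The mean log2 level of the microglia list was 7.56 to 7.57 in PomcGFP, 6.75 to 6.996 on kiTbr2GFP arrays and 6.83 to 7.21 on tgTbr2GFP arrays. The part of these lists in the receptor differences was not tested. The mean log2 level of the mature granule neuron list was 9.54 and 9.73 in PomcGFP, 8.39 to 8.46 in kiTbr2GFP, 8.75 to 9.02 in tgTbr2GFP and 8.47 to 8.70 in NesGFP.

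PomcGFP against NesGFP gave 6 genes higher and 2 lower, where 15.9% of all genes were higher and 24.0% lower (39.9% called in all). It shares its arrays with the comparisons above, so its values are given beside them and not as further support. Grin2b had the largest difference at 2.75 ± 0.13 (SE), or 6.73-fold (limma adjusted p = 5.19e-07), with Gria2 at 2.57, Gria3 at 1.96, Grin2a at 1.83 and Gria1 at 1.70. Gria4 was at 0.80 (adjusted p = 0.0145), a call that ended without PomcGFP array 1 (adjusted p = 0.136) and with only the compared groups in the fit (adjusted p = 0.0736). Grin2c was at -0.99 (adjusted p = 0.000365). Grin3a was at -1.06 (adjusted p = 0.0313), a call that ended without NesGFP array 1 or 2 or either PomcGFP array (adjusted p = 0.0647 to 0.196) and with only the compared groups (adjusted p = 0.118), and Grin2d was at 0.04 with an interval of -0.27 to 0.35.

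Between the Tbr2 reporters, kiTbr2GFP against tgTbr2GFP, only Gria3 of the 9 passed, lower in kiTbr2GFP, where 0.684% of all genes were lower and 0.436% higher (1.12% called in all). The difference was -1.74 ± 0.35 (SE; limma adjusted p = 0.0415), without overlap between the lines. Leaving out any of 9 of the 11 arrays ended the call, the exceptions being NesGFP array 3 and tgTbr2GFP array 2 (adjusted p = 0.0178 to 0.150 over the 11). Grin2a (-1.31, adjusted p = 0.0781), Gria1 (-0.70, adjusted p = 0.288) and Grin2b (-0.26, adjusted p = 0.513) had lower means in kiTbr2GFP but did not pass. Within tgTbr2GFP array 1 had the highest Gria3 and Grin2a, and array 2 the lowest. Among the marker lists, 5 of 7 dividing-cell genes were higher in kiTbr2GFP, with a median of 1.16 and list levels of 8.84 to 9.03 against 7.77 to 7.95 in tgTbr2GFP, and 2 of 10 astrocyte and 2 of 12 mature granule neuron genes were lower. The oligodendrocyte marker list was at 9.10 on array 1, 7.34 on array 2 and 7.72 on array 3, and the mature granule neuron list at 9.02, 8.75 and 8.92. The mean log2 level of the Y-linked genes was 9.04, 5.05 and 7.49 on arrays 1, 2 and 3 of tgTbr2GFP and 8.70 to 8.96 in kiTbr2GFP. The share of RNA from male animals thus differs between the tgTbr2GFP arrays. The part of these lists and levels in the difference was not tested beyond the fit with the Y-linked level as a covariate, where Gria3 kept its call and Grin2a passed as lower in kiTbr2GFP (-1.95, adjusted p = 0.00184).

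The same fit gave each Tbr2 line alone against the others, on shared arrays. Against NesGFP kiTbr2GFP had 3 of the 9 genes higher and 4 lower, where 18.2% of all genes were higher and 27.0% lower (45.2% called), and tgTbr2GFP had 4 higher and 2 lower, where 15.8% were higher and 25.8% lower (41.6% called). PomcGFP had 4 higher and 0 lower than kiTbr2GFP, where 2.90% of all genes were higher and 1.98% lower (4.88% called). It had 2 higher and 0 lower than tgTbr2GFP, where 0.545% were higher and 0.823% lower (1.37% called). The order of the lines can be read from these tests. For Gria2 it was PomcGFP, tgTbr2GFP and kiTbr2GFP, whose neighbours did not pass in the test, then NesGFP. For Grin2b PomcGFP lay above both Tbr2 lines, whose difference did not pass, and those above NesGFP. For Gria1 the neighbours PomcGFP and tgTbr2GFP (0.74, adjusted p = 0.304), tgTbr2GFP and kiTbr2GFP, and kiTbr2GFP and NesGFP did not pass, while PomcGFP passed against kiTbr2GFP (1.44, adjusted p = 0.00872), which ended without either PomcGFP array (adjusted p = 0.0783 and 0.0760). For Gria3 and Grin2a the order was PomcGFP, tgTbr2GFP, NesGFP and kiTbr2GFP, and the difference of tgTbr2GFP and NesGFP did not pass.

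The balance between subunits was compared as the difference of a pair of log2 values on the same array, which shows unequal change between lines and is not a ratio of amounts. It is made of the single-gene values given above, so it is not further support for them. The tests of both Tbr2 lines treat their arrays as a single group, though the lines did not overlap for either pair. For Grin2a minus Grin2b NesGFP had a mean of -0.37 (SD 0.33, n = 3) and kiTbr2GFP -3.23 (SD 0.11, n = 3). tgTbr2GFP stood at -2.18 (SD 0.60, n = 3), PomcGFP at -1.30 (SD 0.12, n = 2). The kiTbr2GFP value rests on Grin2a levels below the 25th percentile of all 3 arrays, so its size is not well measured and its small SD is no sign of precision. The Tbr2 lines lay below NesGFP by 2.33 on the log2 scale (-2.33, exact permutation test, two-sided p = 0.0119, adjusted p = 0.0476 over 8 tests), with no overlap among 9 arrays. PomcGFP lay above the Tbr2 lines by 1.41 (exact permutation p = 0.0357, adjusted p = 0.0714), again without overlap. Both genes rose in PomcGFP against the Tbr2 lines, Grin2a by more.

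For Gria2 minus Gria1 NesGFP had a mean of 0.01 (SD 0.33, n = 3) and kiTbr2GFP 2.08 (SD 0.11, n = 3). tgTbr2GFP stood at 1.39 (SD 0.06, n = 3), PomcGFP at 0.88 (SD 0.09, n = 2). The Tbr2 lines lay above NesGFP by 1.73 (exact permutation p = 0.0119, adjusted p = 0.0476), and PomcGFP lay below the Tbr2 lines (-0.86, exact permutation p = 0.0357, adjusted p = 0.0714). Each p is the smallest that the design can give. PomcGFP against NesGFP and kiTbr2GFP against tgTbr2GFP cannot go below 0.1 and were at 0.1 for both pairs. Without any one of the 9 NesGFP and Tbr2 arrays the adjusted p against NesGFP was above 0.05 for both pairs, up to 0.0714, which the smaller number of splits imposes, while the differences stayed at -2.56 to -2.14 and 1.54 to 1.83.

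**Figure D3:**
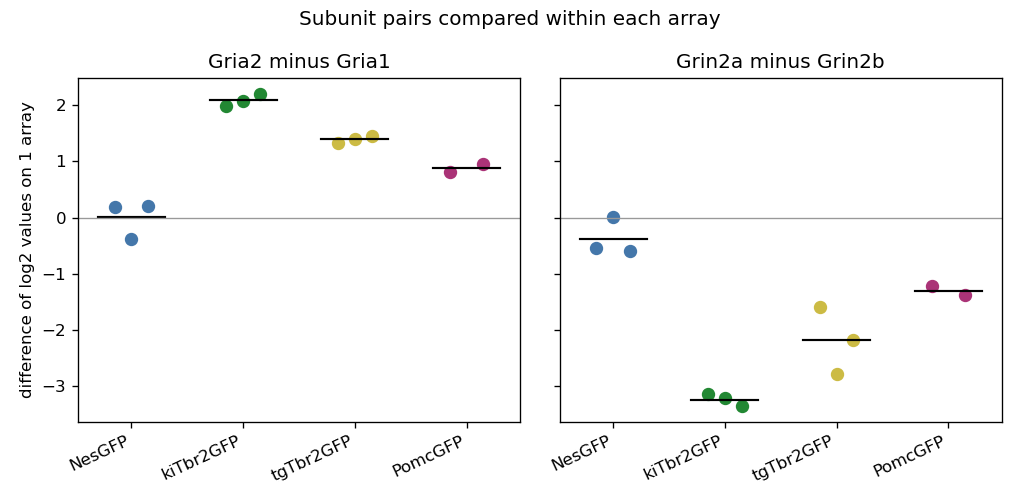
Difference of log2 values of a pair of subunits on the same array, Gria2 minus Gria1 on the left and Grin2a minus Grin2b on the right, with 1 point per array and the line mean as a bar. For both pairs kiTbr2GFP (2.08 and -3.23) lies farthest from NesGFP (0.01 and -0.37), with tgTbr2GFP and PomcGFP between them.

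Genes with the most similar profile over the 4 line means were sought by the root-mean-square difference of centred log2 means, among genes that passed the F test. With only 4 means and so many genes to pick from, small distances are easily found. They were not tested and do not show shared regulation. Gria3 and Grin2a were each among the nearest 3 of the other, at 0.16. Beside them stood Ryr2, a calcium release channel, at 0.18 from Gria3, C1ql3, a secreted synaptic protein, at 0.14 from Grin2a, and Ano3 near both (0.22 and 0.23). Gria2 was nearest to Myo9a (0.07), an unconventional myosin, Gabra2 (0.09), a GABA-A receptor subunit, and Dmxl1 (0.09). Grin2b was nearest to Kcnt2 (0.11), a sodium-activated potassium channel, Pgm2l1 (0.15) and Micu3 (0.17), a regulator of the mitochondrial calcium uniporter. Gria1 was nearest to Nr3c2 (0.06), the mineralocorticoid receptor, Ogfrl1 (0.08) and Nexmif (0.09). Gria4 lay closest to Vps54 (0.02), Cnot6 (0.02) and Dis3 (0.03), Grin2c to Tom1l2 (0.01), Mecom (0.01) and Sik3 (0.02), and Grin3a to Slc30a1 (0.01), Dnajb2 (0.02) and Errfi1 (0.03). Among the members Grin2c and Grin3a were also close to each other, at 0.08. For Grin2d the nearest were Gas5, Phc2 and Kcnk1, at 0.11 to 0.13. Grin2d itself did not pass the F test and its line means spanned 0.11, so these distances mark no shared profile.

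The AMPA receptor is assembled with auxiliary subunits that set its trafficking and gating. Of 15 such genes 1 was higher and 3 lower in the Tbr2 lines than in NesGFP. Over all genes 19.8% were higher and 29.1% lower. The median of the 15 was -0.31, against -0.02 over all genes. Cacng2 (stargazin), the founding auxiliary subunit, was higher by 1.02 ± 0.25 (SE; limma adjusted p = 0.00518), while its relatives Cacng7 (-0.72) and Cacng4 (-0.57) were lower. In PomcGFP against the Tbr2 lines only Shisa6, which keeps AMPA receptors from desensitising, passed among the 15, beside 3.73% of all genes. Shisa6 was higher by 1.32 ± 0.28 (SE; adjusted p = 0.0225). The median of the 15 was 0.43, against 0.02 over all genes. Against NesGFP Cacng2 (1.19) and Frrs1l (1.11), a factor of receptor assembly in the endoplasmic reticulum, were higher in PomcGFP. Those 2 of 15, with 0 lower, stand beside 15.9% of all genes higher and 24.0% lower. Between the Tbr2 lines 0 of the 15 passed, beside 1.12% of all genes.

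Of 18 measured scaffold and trafficking genes 3 were higher and 3 lower in the Tbr2 lines than in NesGFP, with a median of -0.01. Homer1 (0.91) and Shank2 (0.69), scaffolds of the postsynaptic density, were higher, and Nsf (-0.97), the ATPase that binds Gria2 and drives membrane fusion, and Dlg4 (-0.70), which encodes PSD-95, were lower. In PomcGFP against the Tbr2 lines 5 were higher and 0 lower, with a median of 0.19. They were led by Nsf at 1.87 ± 0.19 (SE; limma adjusted p = 0.000359) and Dlg2, which encodes PSD-93, at 1.58 ± 0.33 (SE; adjusted p = 0.0222). Against NesGFP 7 were higher in PomcGFP, with Dlg2 at 1.91 and Homer1 at 1.04, and 1 lower, Pick1 (-0.59), a protein that binds Gria2 and takes part in its internalisation. These 8 of 18 stand beside 39.9% of all genes called in that comparison, the 6 of 18 against NesGFP beside 48.9% for the Tbr2 lines, and the 5 of 18 beside 3.73% for PomcGFP against the Tbr2 lines.

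Adarb1, the enzyme that edits the Gria2 pore codon, was higher in PomcGFP than in NesGFP by 0.53 ± 0.17 (SE; limma adjusted p = 0.0259). It was at 0.19 for the Tbr2 lines against NesGFP (adjusted p = 0.239) and at 0.33 for PomcGFP against the Tbr2 lines (adjusted p = 0.360). Adar, the other catalytic editing enzyme measured, was at 0.11 (adjusted p = 0.677), 0.26 (adjusted p = 0.823) and 0.37 (adjusted p = 0.282) in the Tbr2 lines against NesGFP, PomcGFP against the Tbr2 lines and PomcGFP against NesGFP. Editing itself was not measured.

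Genes that make or transport the co-agonist or clear glutamate were lower in the Tbr2 lines, 6 of 7, beside 29.1% of all genes. The median of the 7 was -1.40, against -0.02 over all genes. Slc6a9 (GlyT1), the glial glycine transporter, was at -2.74 ± 0.12 (SE; limma adjusted p = 3.33e-08) and Slc7a10, a transporter of D-serine and glycine, at -1.96 ± 0.09 (SE; adjusted p = 4.06e-08). The exception was Srr, the serine racemase that makes D-serine, at -0.04. Slc1a2 and Slc1a3 of this list are also among the astrocyte markers, which moved the same way. PomcGFP was likewise lower than NesGFP in 6 of 7, beside 24.0% of all genes. Between PomcGFP and the Tbr2 lines 0 passed, beside 3.73% of all genes. Of the remaining ionotropic subunits Grin3b lay between 7.03 and 7.40 on all arrays and differed in no comparison, and Grid1, a delta receptor subunit, was lower in the Tbr2 lines than in NesGFP (-0.45, adjusted p = 0.0308).

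**Figure D4:**
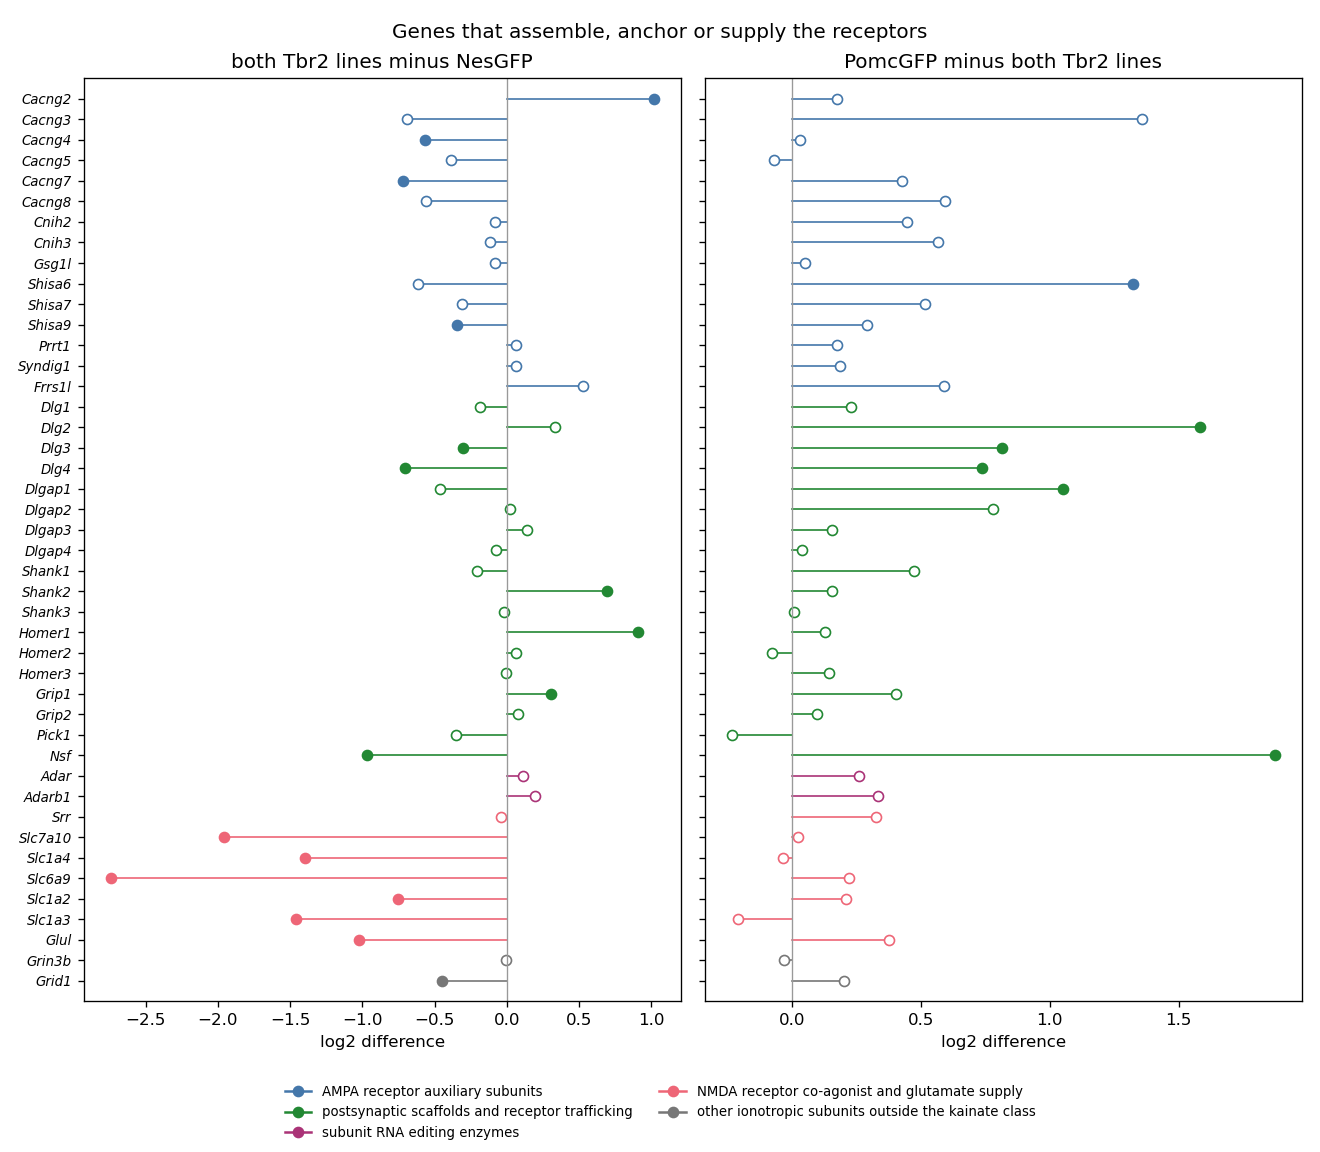
Log2 differences of 44 genes of receptor assembly, anchoring, RNA editing and ligand handling, coloured by list. Both Tbr2 lines minus NesGFP are on the left and PomcGFP minus both Tbr2 lines on the right. Filled points passed at an adjusted p under 0.05. The genes of the co-agonist and glutamate list lie left of 0 in the first panel, with Slc6a9 at -2.74. Nsf (1.87) and Dlg2 (1.58) lie farthest right in the second.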

How the data were processed

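Log2 RMA values, 1 per probe set and array, were deposited by the authors, and per the submitters' processing notes RMA and oligo were used, with no version named. RMA output is on a log2 scale, and the range of the values fits one. RMA equalises the arrays' distributions, so a shift of most genes between lines would be hidden, and it compresses differences of weak probe sets.

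Of 28858 probe sets 21789 had a single symbol in the platform annotation. Genes were filtered as given above, and the probe set with the highest mean stood for a gene. Using limma 3.58.1 under R 4.3.3, 1 mean per line was estimated from the 11 arrays together (7 residual and 4.22 prior degrees of freedom), which lets PomcGFP with 2 arrays borrow its spread from the other lines. Moderated tests were two-sided, with Benjamini-Hochberg adjustment over the 16527 genes of a comparison. Subunit pairs were tested by exact permutation over arrays. Members, gene lists and tests were chosen with earlier results of these data known, and promoter motifs after the values were seen. The members are all named, with up to 2 higher and 2 lower genes of each list per comparison and the 3 nearest profiles. The fit was tested on simulated data. Figures used Python 3.11.15 and matplotlib 3.10.9. The number of arrays limits the precision.

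Alternatives were no filter, a filter at the 50th percentile, the mean of a gene's probe sets, cyclic loess, median centring, array weights, an intensity trend with robust prior, blocking on replicate number, only the compared groups, a Y-linked covariate and each array left out. No other probe set of a member was listed. Replicate numbers did not pair the arrays: deviations of same-numbered arrays correlated at -0.11 to 0.26.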

Additional observations from a re-analysis of the deposited data

Results flagged for a closer look

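The difference of Gria3 from NesGFP was not the same in the Tbr2 lines. It was -1.19 for kiTbr2GFP and 0.54 for tgTbr2GFP, and the test of their difference gave -1.74 (limma adjusted p = 0.0415), with all 3 kiTbr2GFP arrays (6.36 to 7.43) below all 3 tgTbr2GFP arrays (8.08 to 9.58). The adjusted p was 0.0613 with cyclic loess, 0.0530 with median centring, 0.108 with the replicate block and 0.0867 with only the compared groups.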

How the results depend on the processing

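Gria2 and Grin2b kept their calls against NesGFP, and Grin2a and Grin2b theirs for PomcGFP against both Tbr2 lines, under every alternative run. Over all alternatives, 59 values of a member lost a call, 12 gained one and 38 changed sign, none of those 38 called before or after. Numbers of members called changed for kiTbr2GFP minus tgTbr2GFP from 1 to 0 with cyclic loess, median centring and the replicate block, to 3 with array weights and to 2 with the Y-linked covariate. For PomcGFP minus tgTbr2GFP they changed from 2 to 1 with cyclic loess, median centring and the replicate block, to 4 with array weights and to 0 with only the compared groups. Leaving out an array gave 0 to 2 and 0 to 3 members in these comparisons and 2 to 4 for PomcGFP minus both Tbr2 lines; with 1 PomcGFP array left, it is assumed to vary like the other lines. The replicate block ended 1 further call, Gria1 for PomcGFP minus both Tbr2 lines (0.94, adjusted p = 0.0532); the numbers do not pair the arrays.

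All genes called numbered 1624 with array weights, 1022 with only the compared groups and 180 to 806 without 1 array for PomcGFP minus both Tbr2 lines (617); 1393 with array weights and 68 to 261 for kiTbr2GFP minus tgTbr2GFP (185); 2065, 1246 and 365 to 1043 for PomcGFP minus kiTbr2GFP (807); and 1063, 143, 132 with the Y-linked covariate and 38 to 336 for PomcGFP minus tgTbr2GFP (226). With an array left out, Grin2a minus Grin2b ranged from -2.56 to -2.14 and Gria2 minus Gria1 from 1.54 to 1.83 for both Tbr2 lines minus NesGFP. The cause of these changes was not tested beyond the smaller number of arrays.

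Uncalled values changed sign as follows. Cyclic loess gave Grin2d -0.0797 (PomcGFP minus NesGFP), Gria2 0.0210 (kiTbr2GFP minus tgTbr2GFP) and Grin2c -0.0347 (PomcGFP minus tgTbr2GFP). Median centring gave Grin2d -0.0486 and Grin2c -0.0173 in the same comparisons. Array weights gave Grin2d 0.0266 (both Tbr2 lines minus NesGFP), 0.0915 (kiTbr2GFP minus NesGFP) and -0.0217 (PomcGFP minus kiTbr2GFP), Gria2 0.0124 (kiTbr2GFP minus tgTbr2GFP), Grin2a -0.26 (tgTbr2GFP minus NesGFP) and Grin3a 0.0994 (PomcGFP minus tgTbr2GFP). Blocking on the replicate number gave Grin3a -0.0391 (PomcGFP minus both Tbr2 lines). The Y-linked covariate gave Gria4 0.0171 (kiTbr2GFP minus tgTbr2GFP), Grin2d 0.0499 (kiTbr2GFP minus NesGFP) and Grin2c -0.0581 (PomcGFP minus tgTbr2GFP). Without 1 array Grin2d ranged from -0.11 to 0.0249 (both Tbr2 lines minus NesGFP), -0.0342 to 0.19 (PomcGFP minus both Tbr2 lines), -0.0697 to 0.15 (PomcGFP minus NesGFP), -0.0019 to 0.16 (kiTbr2GFP minus tgTbr2GFP), -0.0782 to 0.10 (kiTbr2GFP minus NesGFP), -0.0636 to 0.16 (PomcGFP minus kiTbr2GFP) and -0.0048 to 0.22 (PomcGFP minus tgTbr2GFP). Grin3a ranged from -0.12 to 0.29 (PomcGFP minus both Tbr2 lines) and -0.29 to 0.12 (PomcGFP minus tgTbr2GFP). Gria2 ranged from -0.0362 to 0.0402 and Gria4 from -0.11 to 0.10 (kiTbr2GFP minus tgTbr2GFP), Gria1 from -0.0773 to 0.53 (kiTbr2GFP minus NesGFP), Grin2a from -0.20 to 0.54 (tgTbr2GFP minus NesGFP) and Grin2c from -0.061 to 0.0763 (PomcGFP minus tgTbr2GFP). The alternative of using each other probe set of a gene was not run, because each member had 1.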
